A study of Mus musculus with 12 samples.

Results

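The autophagy and lysosome genes are 49 gene names that either clique table of an H3K27ac Hi-ChIP study of mouse hepatocytes lists in its gene column. They were chosen by name: Atg, Atp6v, Lamp or Lamtor followed by a digit, most cathepsins (Cts followed by 1 letter), and Tfe3, Ulk1, Ulk2, Becn1, Sqstm1, Map1lc3a, Map1lc3b and Gabarap. Earlier results of these data were known when the choice was made. All 49 matched protein-coding genes in RefSeq, and they stand among 16197 listed names and 9596 listed protein-coding genes. Of the 78 protein-coding RefSeq symbols that fit the rule, 29 had no entry in either gene column, Tfeb and Gabarapl1 among them.

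Hi-ChIP joins DNA ends that lie near each other in the nucleus and pulls down those bound to a chosen mark, here histone H3 acetylated at lysine 27, which marks active promoters and enhancers. The hepatocytes came from collagenase-digested livers of male C57BL/6 mice aged 25 months (Old) and 5 months (Young), with no treatment other than age. Each age had 6 libraries, labelled as 3 batches of each of 2 biological replicates. The deposited tables hold 1 network per age, made of 5 kb bins (nodes) that are grouped into cliques, the authors' word. The old network had 40304 nodes in 5973 cliques and the young network 56928 nodes in 5401 cliques. Because no replicate has a network of its own, no spread between animals can be given and there is no test: every difference below describes these 2 networks. The number of contacts sequenced for each age is unknown, so a smaller clique in Old and fewer contacts in Old cannot be told apart.

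Autophagy wraps cytoplasm in a double membrane and delivers it to the lysosome. The Ulk1 kinase complex starts the membrane, Atg9 and Atg2 proteins supply it with lipid, and a pair of ubiquitin-like conjugation systems attach Atg8 proteins such as LC3 to it. The lysosome then digests the cargo with cathepsins and other hydrolases in an acid lumen, which the V-ATPase proton pump maintains. In liver this pathway breaks down proteins, glycogen, lipid droplets and mitochondria, most of all in fasting. The transcription factors TFEB and TFE3 bind E-box-like elements in promoters of many of these genes, and the Ragulator complex on the lysosome anchors the kinase mTORC1, which holds both factors in the cytoplasm when nutrients are plentiful.

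The markers of hepatocytes were present as labelled: 6 of 8 were listed in the old network and 7 of 8 in the young, Alb and Apoa1 in both. None of the 8 markers of Kupffer cells and macrophages, cells rich in lysosomes, was listed at either age. Of 6 markers each, Old and Young listed 1 and 3 for sinusoidal endothelium, 0 and 1 for stellate cells, 0 and 1 for cholangiocytes, and 1 and 1 for lymphocytes.

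Promoter sequences carried the E-box CACGTG, the core that TFEB and TFE3 recognise, more often in these genes than in listed genes at large. Windows of 300 bases, from 250 before to 50 after the start site, were taken from RefSeq (GRCm38.p6) and were found for 38 of the 49 genes. The E-box, which reads the same on both strands, was in a window of 13 of the 38 (34.2%, 95% Wilson interval 21.2 to 50.1), against 11.5% of the 7691 listed protein-coding genes with a window. The longer form TCACGTGA, which contains the E-box and also reads the same on both strands, was in 5 of 38 (13.2%, 5.75 to 27.3), against 2.03%. A match is a description of the letters and shows no binding. The windows below are given to show how the E-boxes lie in genes that the results turn on, with E-boxes in capitals. Lamp1 (chr8:13158911-13159210, plus strand) held 4, the most of any window here, the first starting at -61 and the last at -15 from the start site. Ctsa (chr2:164833523-164833822, plus strand) held 2 in the long form, at -12 and 5, and Ctsd (chr7:142387778-142388077, minus strand) held 2, at -245 and -98. Atp6v0b (chr4:117887280-117887579, minus strand), listed in Old only, held 2, at -36 and -18. Lamtor1 (chr7:101905587-101905886, plus strand), listed in Young only, held 1, at -68. Gabarap (chr11:69991120-69991419, plus strand), also listed in Young only, is given for contrast, with none.
Lamp1: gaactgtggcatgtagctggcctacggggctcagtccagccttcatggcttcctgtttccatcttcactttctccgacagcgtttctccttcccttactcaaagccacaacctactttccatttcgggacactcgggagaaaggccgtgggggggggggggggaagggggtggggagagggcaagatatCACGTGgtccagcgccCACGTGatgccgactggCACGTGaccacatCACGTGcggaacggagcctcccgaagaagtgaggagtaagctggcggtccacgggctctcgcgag
Ctsa: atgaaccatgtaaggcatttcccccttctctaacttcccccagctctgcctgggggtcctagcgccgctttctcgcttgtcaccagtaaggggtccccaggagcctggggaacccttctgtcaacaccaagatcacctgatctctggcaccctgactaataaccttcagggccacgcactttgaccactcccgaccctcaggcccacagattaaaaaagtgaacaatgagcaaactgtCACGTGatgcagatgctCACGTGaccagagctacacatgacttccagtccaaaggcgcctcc
Ctsd: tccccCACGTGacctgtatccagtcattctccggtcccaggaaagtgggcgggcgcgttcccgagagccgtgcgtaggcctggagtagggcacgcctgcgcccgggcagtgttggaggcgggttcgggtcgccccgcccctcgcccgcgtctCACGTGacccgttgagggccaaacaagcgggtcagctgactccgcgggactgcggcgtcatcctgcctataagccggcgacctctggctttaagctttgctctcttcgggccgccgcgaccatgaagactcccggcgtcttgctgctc
Atp6v0b: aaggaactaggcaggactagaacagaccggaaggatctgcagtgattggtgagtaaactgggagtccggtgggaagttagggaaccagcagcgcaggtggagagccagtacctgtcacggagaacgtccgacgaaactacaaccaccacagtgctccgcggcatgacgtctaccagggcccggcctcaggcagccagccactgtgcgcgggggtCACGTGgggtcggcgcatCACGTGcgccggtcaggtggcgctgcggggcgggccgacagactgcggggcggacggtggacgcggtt
Lamtor1: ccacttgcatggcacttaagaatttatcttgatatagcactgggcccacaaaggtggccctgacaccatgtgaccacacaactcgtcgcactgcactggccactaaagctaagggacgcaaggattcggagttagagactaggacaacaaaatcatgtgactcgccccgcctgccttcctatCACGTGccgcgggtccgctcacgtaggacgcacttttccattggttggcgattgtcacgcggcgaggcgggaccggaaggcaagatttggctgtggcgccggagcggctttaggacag
Gabarap: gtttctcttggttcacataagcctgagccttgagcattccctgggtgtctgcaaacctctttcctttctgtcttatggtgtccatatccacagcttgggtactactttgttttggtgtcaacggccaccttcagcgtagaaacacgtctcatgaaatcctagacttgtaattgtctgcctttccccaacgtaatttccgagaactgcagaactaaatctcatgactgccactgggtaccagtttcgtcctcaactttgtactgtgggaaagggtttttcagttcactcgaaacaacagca

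Most autophagy and lysosome genes were in smaller cliques in Old, as were most listed genes. The value of a gene is the number of nodes of the largest clique that lists it, 0 where none does, and the difference is log2((old + 1)/(young + 1)). Old had the smaller clique for 42 of the 49 (85.7%) and the larger for 7 (14.3%), against 78.5% smaller and 17.9% larger among all 9596 protein-coding genes. A difference of at least 2-fold on that scale was reached by 28 genes toward a smaller clique and by 5 toward a larger one. The background is 48.6% and 11.9% of all genes, beside 57.1% for the smaller cliques here, so the counts lie near the background. The median log2 value was -1.22, against -0.93 for all genes. The old network has smaller cliques on the whole, with a mean of 6.75 nodes, against 10.5 nodes in the young network. With sizes divided by the mean of their own network, 31 of the 49 were smaller in Old and 18 larger, against 58.6% and 41.4% of all genes. Here and below, the division was applied only to genes listed at both ages, without the + 1. Genes listed at 1 age kept their direction and undivided value, so counts and medians after division mix 2 scales. The division moved the median log2 value to -0.78, against -0.36 for all genes, and the 11 genes whose direction it turned were Ulk1, Atg9a, Atg12, Sqstm1, Atp6v0d2, Atp6v1a, Atp6v1g1, Lamp1, Ctsa, Ctsf and Ctsl. Of the 30 genes listed at both ages, 27 were smaller in Old and 3 larger (81.5% smaller and 13% larger over all genes), and after the same division 16 were smaller and 14 larger. At least 2-fold smaller cliques in Old were found for 13 of these 30, against 35.7% of all genes listed at both ages.

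**Figure D1:**
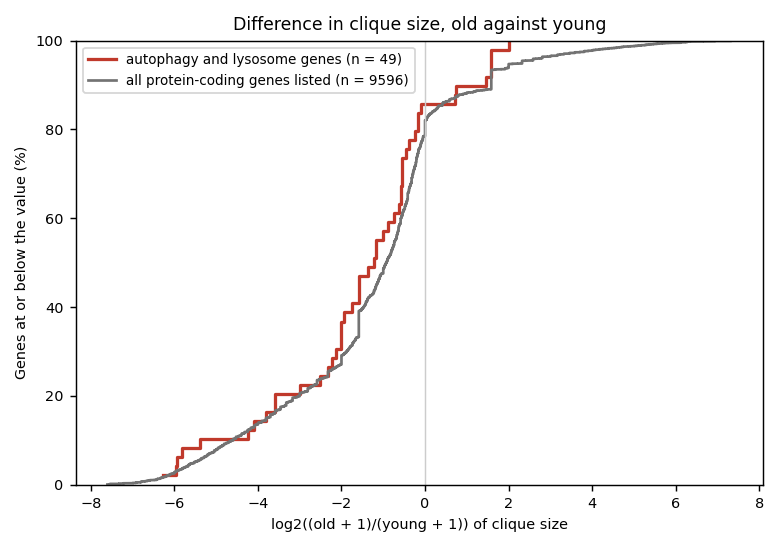
Cumulative share of genes (y axis, percent) at or below each log2((old + 1)/(young + 1)) of clique size (x axis), for the 49 autophagy and lysosome genes and for all 9596 listed protein-coding genes. The lines run close together, with medians of -1.22 and -0.93.

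No 2 of the 49 genes shared a clique at either age, so the values are not copies of each other. They split by listing as 15 in Young only (30.6%, background 25.4%), 4 in Old only (8.16%, background 9.44%) and 30 in both. The 30 genes had a median of 14.5 nodes in Old and 21.5 in Young, against 16 and 30 over all genes listed at both ages. All values are shown in the plot of clique size by gene.

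**Figure D2:**
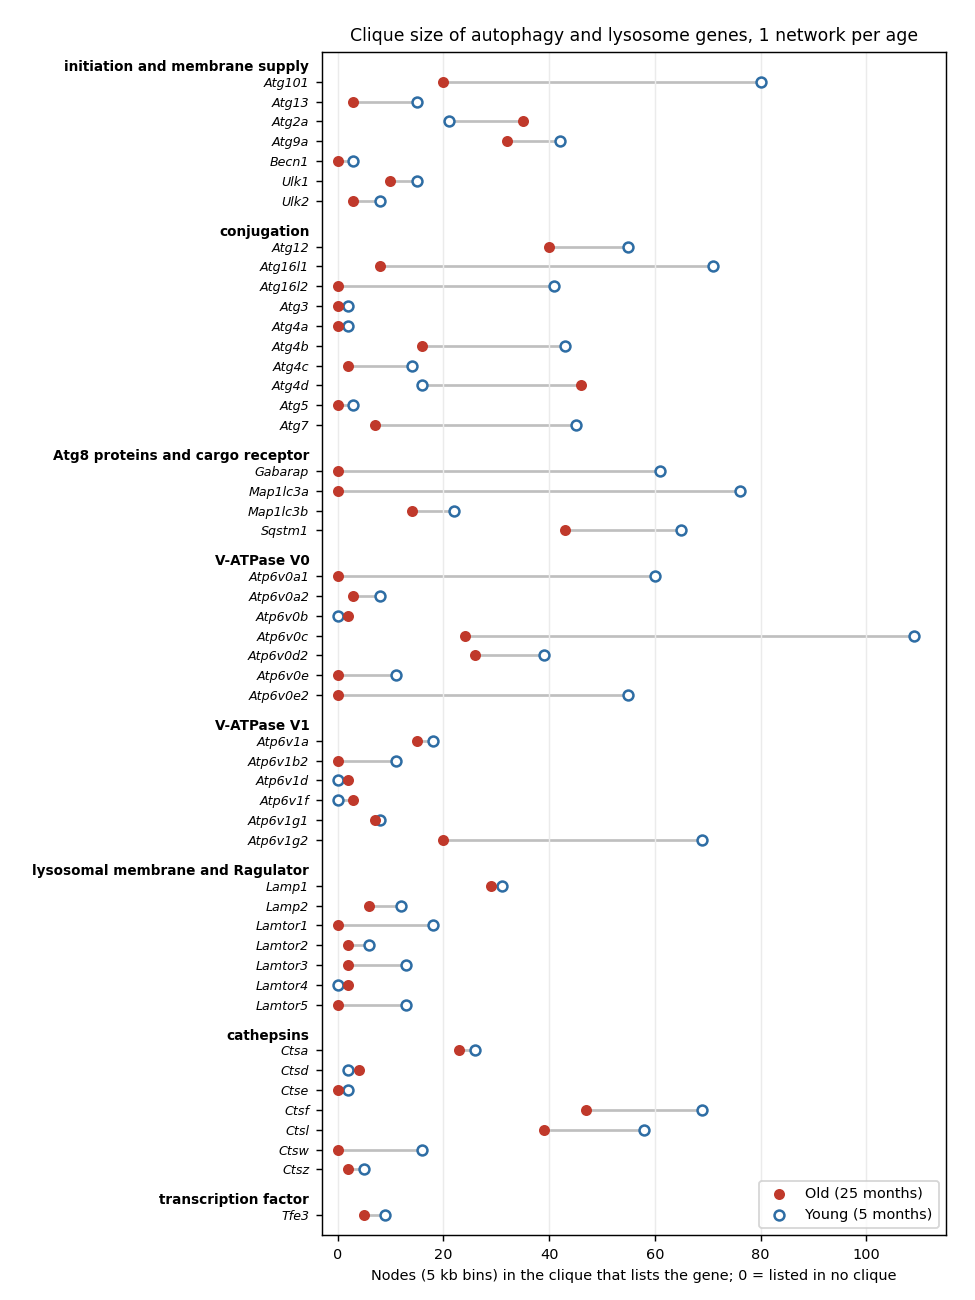
Nodes (5 kb bins) in the clique that lists each gene (x axis) in the Old network (filled red) and the Young network (open blue), grouped by role, with 0 for a gene that no clique lists. Red lies left of blue for 42 of 49 genes (31 once sizes are divided by the mean of their network), and Atg4d at 46 nodes in Old and 16 in Young is the largest gap the other way.

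Among genes that start autophagy and feed the membrane, 6 of 7 were in smaller cliques in Old (85.7%, background 78.5%) and Atg2a was in a larger one. After division by the mean clique size Ulk1 and Atg9a were larger too. Ulk1, the kinase at the head of the pathway, was in cliques of 10 nodes in Old and 15 in Young, and its relative Ulk2 in cliques of 3 and 8. Atg13, a regulatory partner of the kinase, had 3 nodes in Old and 15 in Young, a log2 value of -2.00. At both ages it shared its clique with Ambra1, another autophagy regulator. Atg101, which stabilises Atg13, had 20 nodes in Old and 80 in Young. Its young clique on chromosome 15 ran from 101215001 to 102450000, and its old one from 101095001 to 101295000. The largest share of the young nodes, 38, lay in an old clique of 45 that lists the keratin genes Krt8 and Krt18 and the cholesterol-esterifying enzyme gene Soat2, while 13 stayed with Atg101. Becn1, a subunit of the lipid kinase complex that marks the site of membrane growth, was listed in Young only, in a clique of 3 nodes.

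The scramblase gene Atg9a had 32 nodes in Old and 42 in Young, with 30 of the 42 in its old clique. Atg2a, a lipid transfer protein gene, was in a clique of 35 nodes in Old and 21 in Young. Its old clique joined 17 nodes of that young clique with 14 of a second young clique of 23, reaching from 5730001 to 6340000 on chromosome 19. Atg9a and Atg2a were thus in cliques of over 30 nodes in Old, Atg9a with fewer nodes than in Young and Atg2a with more. Their paralogs Atg2b and Atg9b had no listing at either age. With the start site bin and its neighbours, Atg2b had 12 nodes in Old and 20 in Young, and Atg9b 15 at both ages.

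Of the 10 conjugation genes, 9 (90%, background 78.5%) were in smaller cliques in Old or in none. After division by the mean clique size 8 were smaller (background 58.6%), and 4 of the 10 were listed in Young only (40%, background 25.4%). Atg7, the E1-like enzyme of both conjugation systems, had 7 nodes in Old and 45 in Young, or 24 and 45 by gene span, a log2 value of -0.88 in place of -2.52. Of its 45 young nodes 24 lay in an old clique of 24 that lists Vgll4, a gene of Hippo signalling next to it, and 7 stayed with Atg7, in the 35 kb from 114640001 to 114675000 on chromosome 6 that hold its start site. Atg16l1, which directs conjugation to the membrane, had 8 nodes in Old and 71 in Young. There 30 of the 71 nodes lay in an old clique of 32 that lists Ugt1a1 and other bilirubin and drug glucuronosyltransferase genes, and 5 stayed with Atg16l1. Its paralog Atg16l2 had no listing in Old and 41 nodes in Young. Atg12, the ubiquitin-like protein joined to Atg5, kept a large clique, with 40 nodes in Old and 55 in Young. Atg5 itself and the E2-like Atg3 had no listing in Old, and 3 and 2 nodes in Young.

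The 4 genes of Atg4 proteases, which trim Atg8 proteins, differed in direction. Atg4d was in a clique of 46 nodes in Old and 16 in Young, a log2 value of 1.47. On the size + 1 scale it was the 1 gene of the 30 listed at both ages with an at least 2-fold larger clique in Old, against 3.77% of all genes listed at both ages. Its old clique held 12 nodes of its young clique and 30 of a second young clique of 43. At both ages the clique lists Keap1, the oxidative stress sensor gene. Atg4b had 16 nodes in Old and 43 in Young. Atg4c had 2 nodes in Old and 14 in Young, but 14 at both ages by gene span or with the bins next to the start site. X-linked Atg4a had no listing in Old and 2 nodes in Young.

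Of the 3 Atg8 genes among the 49, a pair was listed in Young only (background 25.4%) and one at both ages. Neither Map1lc3a, which encodes LC3A, nor Gabarap was listed in Old, and in Young they had 76 and 61 nodes. Map1lc3b, which encodes the LC3B protein widely used to mark autophagosomes, had 14 nodes in Old and 22 in Young. Sqstm1, the gene of the cargo receptor p62, had 43 nodes in Old and 65 in Young, a difference that division by the mean clique size turned to 0.05 on the log2 scale, and 41 of the 65 lay in its old clique. That clique covered the same stretch at both ages, from 49980001 to 50380000 on chromosome 11. The young clique of Map1lc3a was divided in Old: 26 nodes were in an old clique of 27 that lists Trp53inp2 and Ahcy, and 17 in one of 19 that lists the glutathione synthetase gene Gss. For Gabarap, 20 nodes were in an old clique of 26 that lists Asgr1 and Asgr2, the asialoglycoprotein receptor of hepatocytes, and 14 in one of 17.

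In the membrane sector (V0) of the V-ATPase, 6 of 7 genes (85.7%, background 78.5%) were in smaller cliques in Old or in none. After division by the mean clique size 5 were smaller (background 58.6%). Atp6v0c, the proteolipid of the proton-carrying ring, had the largest young clique of all 49 genes, 109 nodes, and 24 nodes in Old. That young clique also lists Clcn7, the lysosomal chloride-proton exchanger gene, and Tsc2 and Mlst8 of the mTORC1 pathway. In Old 41 of its nodes lay in a clique of 51 with Mlst8, 22 stayed with Atp6v0c and 29 were absent. Atp6v0a1, one of the large subunits that set where the pump goes, had no listing in Old and 60 nodes in Young. Of those nodes 17 lay in an old clique of 18 that lists Stat3 and Stat5a. Atp6v0e2 and Atp6v0e, small V0 subunits, had no listing in Old, and 55 and 11 nodes in Young. Atp6v0a2 had 3 nodes in Old and 8 in Young, and Atp6v0d2, a d subunit studied mostly in osteoclasts and kidney, had 26 and 39. Atp6v0b, the other proteolipid, was listed in Old only, in a clique of 2 nodes.

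The cytosolic sector (V1) had a median log2 value of -0.21 over 6 genes, against -0.93 for all genes. Of the 6, 4 were smaller and 2 larger in Old, or 2 smaller and 4 larger after division by the mean clique size. The background is 78.5% smaller, or 58.6% after the division. Atp6v1a, the catalytic subunit, had 15 nodes in Old and 18 in Young, and the stalk subunit Atp6v1g1 had 7 and 8. Atp6v1b2, the subunit that alternates with the catalytic one, had no listing in Old and 11 nodes in Young, or 4 and 11 by gene span. Atp6v1f and Atp6v1d were listed in Old only, with 3 and 2 nodes. Their log2 values of 2.00 and 1.58, from these small cliques, enter the median. By gene span Atp6v1d had 2 nodes in Old and 3 in Young (-0.42), while Atp6v1f was unchanged. Atp6v1g2, a G subunit best known from brain, lies in the class III major histocompatibility region and had 20 nodes in Old and 69 in Young. By gene span, or with the bins next to the start site, it had 46 and 69, which is under 2-fold. Of its 69 young nodes 38 lay in an old clique of 46 with the complement genes C2, C4b and Cfb and the lysosomal sialidase gene Neu1, whereas the old clique that lists it also lists Tnf, Lta and H2-D1. Its values cannot be separated from those of the region.

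Lamp1 and Lamp2, genes of abundant lysosomal membrane proteins, were listed at both ages, as were 65.2% of all genes. Lamp1 had 29 nodes in Old and 31 in Young (log2 value -0.09, or 0.55 after division by the mean clique size), and 25 of the 31 lay in its old clique. X-linked Lamp2, whose splice form LAMP2A serves chaperone-mediated autophagy, had 6 nodes in Old and 12 in Young.

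The cliques that list the 5 Ragulator genes were small at both ages, with at most 2 nodes in Old and at most 18 in Young. Lamtor1, which anchors the complex to the membrane, and Lamtor5 had no listing in Old, and 18 and 13 nodes in Young. By gene span Lamtor1 had 11 nodes in Old and 18 in Young, whereas Lamtor5 had no old node in its span. Lamtor3 had 2 nodes in Old and 13 in Young, and 3 of the 13 lay in an old clique of 4 that lists Mttp, the lipoprotein assembly gene beside it. Lamtor2 had 2 nodes in Old and 6 in Young. Lamtor4 was listed in Old only, with 2 nodes.

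Cathepsin genes formed 2 sets by size, with 6 smaller (85.7%, background 78.5%) and 1 larger in Old. After division by the mean clique size 3 were smaller (background 58.6%) and 4 larger. Ctsf, Ctsl and Ctsa were in cliques of over 20 nodes at both ages. Ctsf, a cysteine protease gene, had 47 in Old and 69 in Young, Ctsl, a cysteine protease of broad lysosomal use, had 39 and 58, and Ctsa, which protects lysosomal glycosidases, had 23 and 26. Of the nodes of these old cliques, 46 for Ctsf, 35 for Ctsl and 20 for Ctsa were nodes of the same gene's young clique. The others were small in Old. Ctsd, the main aspartic protease of the lysosome, was one of the 3 genes with a larger clique in Old among those listed at both ages, at 4 nodes in Old and 2 in Young. Ctsz had 2 nodes in Old and 5 in Young, just at the 2-fold threshold. Ctsw, a protease of killer lymphocytes, and Ctse had no listing in Old, and 16 and 2 nodes in Young. By gene span Ctsw had 8 nodes in Old and 16 in Young, and Ctse had 2 in Old and 100 in Young.

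Of the transcription factors, Tfe3 was in a clique of 5 nodes in Old and 9 in Young. Tfeb had no entry, but the start site bin or a bin next to it belonged to a clique of 19 nodes in Old and 2 in Young. Genes with an E-box in the promoter window had a median log2 value of -0.54 over 13 genes, and those with a window but no E-box -1.22 over 25. In these groups 10 and 21 genes were in smaller cliques in Old, and 3 and 4 in larger ones. The background is 78.5% smaller and 17.9% larger, with a median of -0.93. Values of both groups moved by gene span. Lamtor1, with an E-box, went from -4.25 to -0.66, and Gabarap, without one, from -5.95 to -1.20. The 3 with an E-box were Atp6v0b, Lamtor4 and Ctsd, in cliques of at most 4 nodes. Median sizes were alike, 4 nodes in Old and 18 in Young with an E-box, and 3 and 16 without. Whether the E-box bears on clique size was not tested.

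The young cliques of these genes kept about the same share of their nodes in Old as other young cliques of like size. The 45 young cliques held 1368 nodes, of which 885 (64.7%, 62.1 to 67.2, 95% Wilson interval covering counting error only) were nodes of the old network, against 59.5% of the nodes of the other 2900 young cliques that list a protein-coding gene. By size, the share was 44.8% for cliques of 2 to 9 nodes, 60.6% for 10 to 29, 66.5% for 30 to 59 and 66.8% for 60 or more. The other cliques of those sizes gave 40.3%, 56.7%, 64.1% and 67.7%, each inside the interval of the autophagy and lysosome value. All 9 young cliques of 60 or more nodes were spread over 2 or more old cliques, as were 83.2% of the others. The 3 young cliques with no old node, those of Atg3, Atg4a and Ctse, had 2 nodes each.

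**Figure D3:**
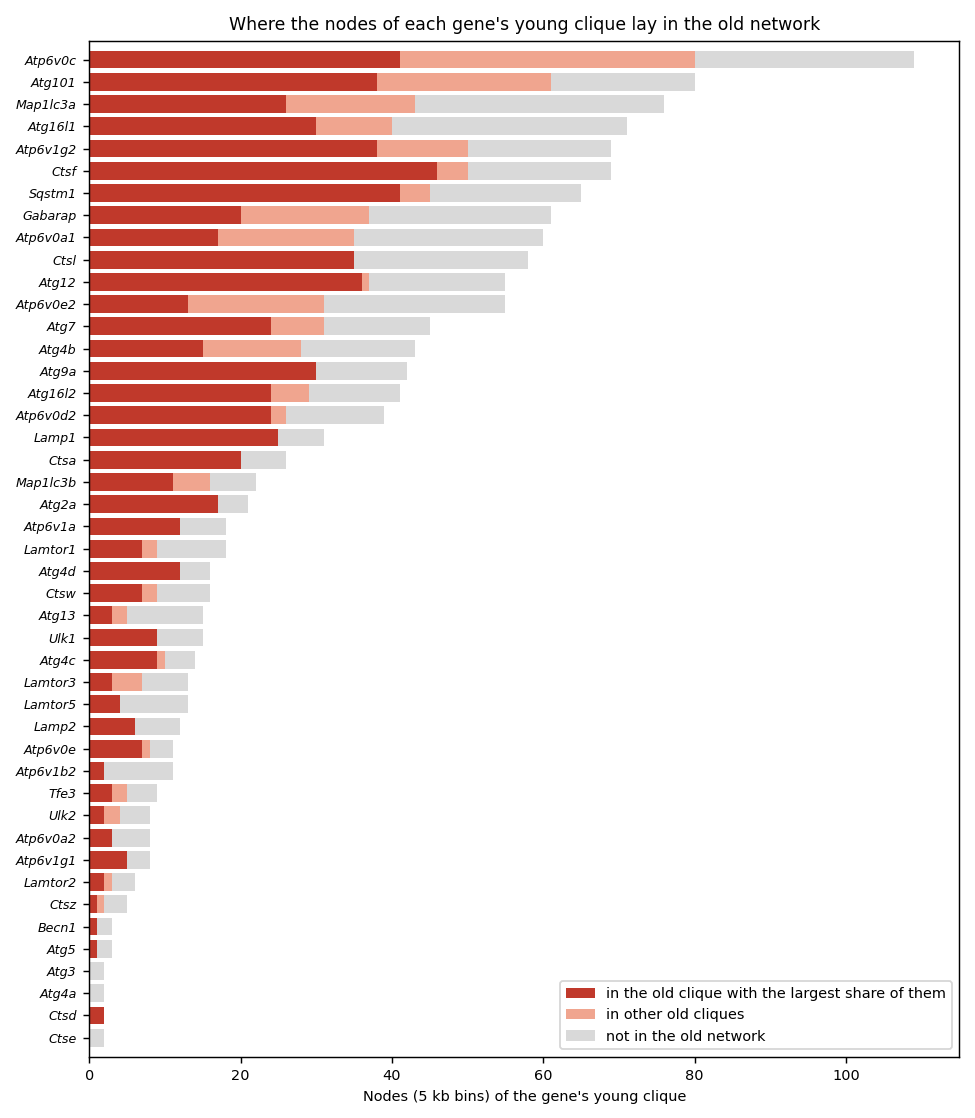
Nodes of the young clique of each of the 45 genes listed in Young (x axis), split into those in the old clique with the largest share of them (dark), in other old cliques (light) and not in the old network (grey). Ctsf, Sqstm1 and Ctsl keep most nodes in 1 old clique, whereas those of Atp6v0c, Atp6v0a1 and Atp6v0e2 are spread over several.

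Whether a gene was listed closely followed the bin that holds its start site, for these genes as for all. The gene column calls cliques without genes nonpromoter, so this may only restate how the column was filled. Of listed genes with a RefSeq start site, 27 of 28 in Old and 34 of 34 in Young had the start site bin in the clique that lists them (91.9% and 94.3% over all protein-coding genes). Of the 10 genes with a start site that Old does not list, that bin was an old node for 1. Old lacked a listing for 15 genes that Young lists, and 12 of them had at least 1 node of the old network in their span, padded by 2500 bp, 80.0% (54.8 to 93.0), against 49.1% of all 2433 such genes.

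Gabarap shows the pattern. Its start site at 69991370 on chromosome 11 lies in the bin from 69990001 to 69995000, a node in Young only, while the next bin along the gene was in the old clique of 26 nodes. Atp6v0e2, Lamtor1 and Atg16l2 were alike, with the adjacent bin along the gene in old cliques of 15, 11 and 27 nodes. For Atp6v0e the start site bin was itself a node of an old clique of 7 that lists Bnip1 and Crebrf but not Atp6v0e. By gene span Map1lc3a had 27 nodes in Old and 76 in Young, and Gabarap 26 and 61. Other start sites were farther from an old node, the nearest lying 20 kb away for Lamtor5 and 395 kb away for Atg3. For Atp6v0a1 it lay 30 kb from the start site used, yet 3 old nodes were within the gene span, which gave 16 nodes in Old and 60 in Young.

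The same held for genes listed in Old only. A bin next to the start site of Atp6v0b was in a young clique of 96 nodes, so that with neighbouring bins counted this gene had 2 nodes in Old and 96 in Young. A bin next to that of Atp6v1d was in a young clique of 3. The start sites of Atp6v1f and Lamtor4 were 45 kb and 50 kb from the nearest young node. With the largest clique in the gene span taken for every gene, the median log2 value was -0.66, against -0.74 for all genes, and the genes at least 2-fold smaller in Old numbered 19 in place of 28.

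**Figure D4:**
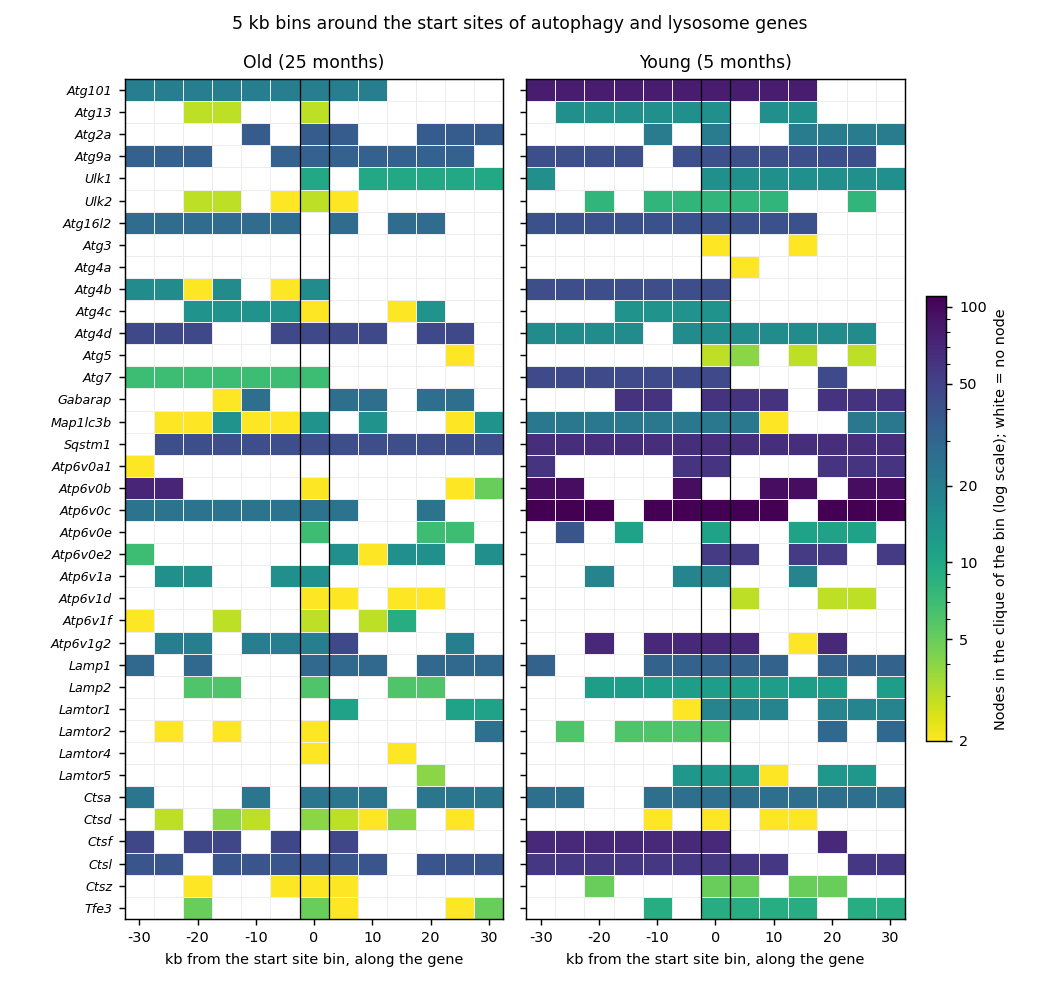
Bins of 5 kb from -30 to 30 kb around the start site bin (x axis, along the direction of the gene, between the black lines at 0) of the 38 genes with a RefSeq start site, in Old (left) and Young (right), coloured by the nodes in the clique of the bin on a log scale, white where the bin is no node. The start site bin is a node for 28 genes in Old and 33 in Young (Atg4a, with a pair of start sites in different bins, is drawn at the one that is no node in Young), and for Gabarap, Lamtor1, Atp6v0e2 and Atg16l2 it is white in Old beside a coloured bin.

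Other genes of the pathway were taken as 5 lists of 141 names, of which 106 were listed. Smaller cliques in Old were found for 87 of the 106 (82.1%, background 78.5%) and larger ones for 16 (15.1%, background 17.9%). After division by the mean clique size these were 60 and 46, against 58.6% and 41.4% of all genes. By list, the share smaller in Old ran from 71.4% for lysosomal hydrolases to 90.9% for the autophagy machinery, beside the same 78.5%. The median log2 value was -0.81, against -0.93 for all genes, and 46.2% were at least 2-fold smaller, against 48.6%. Of 22 further genes of the autophagy machinery, 20 were smaller in Old and 2 larger (14 and 8 after the division). Vamp8, a SNARE of autophagosome fusion, had 12 nodes in Old and 143 in Young. Vmp1, an endoplasmic reticulum scramblase, and the phosphoinositide-binding Wipi1 and Wipi2 had no listing in Old, and 67, 33 and 12 nodes in Young. By gene span the 3 genes had 23, 20 and 25 nodes in Old, and for Wipi2 this exceeds the 12 in Young. Of 15 cargo receptor and mitophagy genes, 13 were smaller and 1 larger (10 and 5). Tollip, a ubiquitin-binding adaptor, had 3 nodes in Old and 148 in Young, and Optn, Pink1 and Bnip3l had no listing in Old, and 34, 23 and 12 nodes in Young. By gene span Optn had 24 nodes in Old and 34 in Young, and Pink1 13 and 23.

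Of 28 lysosomal hydrolase genes, 20 were smaller in Old, 7 larger and 1 equal, or 14 smaller and 14 larger after the division. The background is 78.5% smaller and 17.9% larger, or 58.6% and 41.4% after the division. The lysosomal acid lipase gene Lipa, named after its values were seen, had 32 nodes in Old and 11 in Young, and Gm2a, a glycolipid-binding cofactor gene, had 13 nodes in Old and no listing in Young. Ppt1, a thioesterase gene, had no old node in its span and 39 nodes in Young. Manba and Scpep1 had no listing in Old, and 13 and 12 nodes in Young, but by gene span Manba had 9 in Old and 13 in Young, and Scpep1 20 and 12. Of 23 membrane and sorting genes, 19 were smaller in Old (82.6%) and 3 larger (13.0%), beside the same background (12 and 11 after the division). Cln3, a lysosomal membrane protein gene, had 2 nodes in Old and 63 in Young, and Gnptab, which starts the mannose 6-phosphate tag, had no listing in Old and 19 nodes in Young. By gene span Cln3 had 10 nodes in Old and 63 in Young, and Gnptab 2 and 19. Clcn7 and the adaptor subunit gene Ap3d1 had no listing in Old, though their gene spans met old cliques of 9 and 160 nodes, and had 109 and 185 nodes in Young.

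In the list of TFEB and mTORC1 control, 15 of 18 genes were smaller in Old and 3 larger (10 and 8 after the division). These shares of 83.3% and 16.7% lie near the 78.5% and 17.9% of all genes. After the division the background is 58.6% and 41.4%. Tsc2, an mTORC1 inhibitor gene, had 2 nodes in Old and 109 in Young, but 51 and 109 by gene span. Nprl2 and Nprl3, of the complex that senses amino acid shortage, had no listing in Old, though their gene spans met old cliques of 32 and 8 nodes, and had 33 and 5 nodes in Young. The larger ones were Flcn, which lets mTORC1 hold TFEB in check, at 18 nodes in Old and 2 in Young, Mtor at 26 and 5 (26 and 18 by gene span), and Rragc, listed in Old only with 2 nodes. Mtor and Rragc were named after their values were seen.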

How the data were processed

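H3K27ac Hi-ChIP had been carried out on hepatocytes of Old and Young mice, 6 libraries per age. Bowtie2, HiC-Pro and the builds mm10 and GRCm38 are named in the submitters' processing notes. Not given in the sources used here are the loop caller, the clique method, the promoter window and how libraries were combined. The deposited tables give, per the file headers, the position of each node and, for each clique, its number of nodes, genes and node names. No value was scaled for depth as far as the headers say.

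Networks were read with Python 3.11.15, and intervals are from SciPy 1.17.1. Genes matched RefSeq (GRCm38.p6, 1-based) by symbol or unique synonym. Gene spans were padded by 2500 bp. Nodes were matched as the same 5 kb bin. The size and overlap steps were tested on simulated data. Members and lists were chosen with earlier results of these data known. All members may be named; in each list, the 4 largest absolute log2 values are named, and of clique partners, other members and list genes first, then the 4 nearest genes. Genes of other old cliques were named after their values were seen. No p-value, replicate check or batch comparison was possible with 1 network per age. Some clique partners are not reported here.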

Additional observations from a re-analysis of the deposited data

How the results depend on the processing

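No paired analysis was possible because each age has 1 network and none per replicate, and for the same reason no replicate could be left out. The counts kept within 1.5 times of the main ones (42 smaller, 7 larger, 28 and 5 at least 2-fold) except as follows. Dividing by the mean clique size gave 18 larger, and cliques of at least 3 nodes gave 4 larger and 3 at least 2-fold larger. A pseudocount of 5 gave 1 at least 2-fold larger and a median of -0.63. Genes listed at both ages gave 27 smaller and 3 larger, with 13 and 1 at least 2-fold, or 14 and 2 without a pseudocount, because only 30 genes remain. By percentile among listed genes 13 of the 30 were lower in Old and 17 higher. With the start site bin and its neighbours, an alternative chosen after the data were seen, 16 of 38 were at least 2-fold smaller and 3 larger, with 1 equal, and by gene span 1 was equal. Atp6v1d turned to -0.42 by gene span and by start site bins, and Atp6v0b to -5.01 by start site bins. The nodes of young cliques found in Old came to 84.9%, in place of 64.7%, when the next bin on either side counted. Depth limits all of this, since a missing node may be an uncalled one. The causes were not tested.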

Other observations

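For several genes the largest old part of the young clique did not list the gene itself. For Atg101, Atg16l1, Atg7, Atp6v0c and Atp6v1g2, the old clique with the largest share of the young nodes held 38, 30, 24, 41 and 38 of them and listed other genes, and the old clique that lists the gene held 13, 5, 7, 22 and 8. The larger parts list genes with marked liver roles for Atg16l1 (Ugt1a1) and Atp6v1g2 (C2, C4b and Cfb). These genes were named after their values were seen, and no comparison with other genes was made.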
